A study of Rattus norvegicus with 11 samples.

Results

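The genes of fatty acid oxidation and the known targets of the nuclear receptor PPAR-alpha were followed across the renal cortex of rats with and without diabetes, after a sham operation or gastric bypass. A gene was taken when it stood on a list of 44 named members and at least 1 of its probes lay well above background on 2 or more arrays, and the brightest probe stood for it. All 44 listed genes were measured, among 25250 genes tested, and each member lay well above background on 11 of 11 arrays. They comprise 4 regulators, 4 genes of the carnitine shuttle, 14 of mitochondrial beta-oxidation, 10 of peroxisomal oxidation, 4 of fatty acid activation and thioesterases, 4 of uptake, binding and storage, and 4 other targets.

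Messenger RNA was measured on 11 single-colour oligonucleotide arrays, 1 per sample of renal cortex from Sprague Dawley (SD) rats. Control+Sham (3 arrays) are rats without diabetes given a sham operation, DM+Sham (3 arrays) are rats with type 1 diabetes induced by streptozotocin (STZ), a toxin of insulin-producing cells, and given the same sham operation. Control+RYGB (3 arrays) and DM+RYGB (2 arrays) are the same kinds of rat given Roux-en-Y gastric bypass (RYGB), after which food bypasses most of the stomach, the duodenum and part of the jejunum. Surgery followed the induction of diabetes by 4 weeks, and the cortex was taken 4 weeks after surgery. The labels give no age, sex, diet or blood glucose, and do not say that replicates are separate animals, so p-values measure only the spread between these samples. STZ is known to act on more than beta cells, and a group given STZ without diabetes was not analysed here.

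Fatty acids enter a cell through carriers such as CD36, are bound by small proteins of the FABP family and are activated to acyl-CoA. The carnitine shuttle takes long chains into mitochondria, where beta-oxidation shortens them, while peroxisomes shorten very long and branched chains first. PPAR-alpha, which fatty acids activate, pairs with the receptor RXR and raises genes of nearly all these steps, and proximal tubule cells, the most energy-demanding cells of the cortex, draw much of their ATP from this pathway. PPAR-alpha and RXR bind a pair of AGGTCA-type repeats, and the promoters of the members were read for that element.

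The first pair of sequences shows the upstream stretch of the only member that rose after RYGB in diabetic rats (Fabp1) and of one of those that fell most (Angptl4). Both are the 250 bases before the start site in RefSeq (GRCr8), 5′ to 3′ on the gene's strand, Fabp1 at chr4:104749090-104749339 on the plus strand and Angptl4 at chr7:15258682-15258931 on the minus strand. Capitals mark a match to AGGTCANAGGTCA, on either strand, with at most 2 mismatches.
Fabp1: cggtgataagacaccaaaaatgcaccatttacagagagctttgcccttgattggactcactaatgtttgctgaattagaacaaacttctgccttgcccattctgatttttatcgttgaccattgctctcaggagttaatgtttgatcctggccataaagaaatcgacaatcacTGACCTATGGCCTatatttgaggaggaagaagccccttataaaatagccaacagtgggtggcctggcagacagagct
Angptl4: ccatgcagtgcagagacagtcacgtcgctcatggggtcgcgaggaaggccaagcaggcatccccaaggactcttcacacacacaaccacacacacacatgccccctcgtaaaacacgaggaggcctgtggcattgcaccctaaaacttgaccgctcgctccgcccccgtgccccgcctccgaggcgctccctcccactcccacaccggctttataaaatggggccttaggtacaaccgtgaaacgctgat

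The capitals in Fabp1 begin 77 bases before the start site. Read on the other strand they are AGGCCATAGGTCA, with 1 mismatch to the motif. Of the 44 members, 38 had a promoter in the RefSeq table, from 250 bases before to 50 after the start, and 5 of these (13.2%) held such a match, compared with 3.71% of all 27457 promoters of that length. An exact match was in none of the 38 and in 16 of all promoters. The other 4 matches are shown to place them beside the values given later for their genes, none of which rose or fell in any of the 4 comparisons.
Acadvl: AGGTCAGTGGTCA
Slc25a20: AGGTGAAAGGTCG
Etfa: TTACCTTTGCCCT
Crat: AGGACACCGGTCA

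The window of Angptl4 held no match, nor did those of Ehhadh, Cpt1a, Acot1, Acot5, Crot, Pex11a or Plin2. These are descriptions of letters in a short window, and binding of a factor was not measured.

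Levels below are log2 of the signal minus the 75th percentile of the array, so that 0 is the level of a bright gene, and a level of 1 probe is never set against that of another. The words rose and fell are kept for genes to which limma gave an adjusted p (Benjamini-Hochberg over all genes) under 0.05 in the same direction with arrays scaled to the 75th percentile, to the median and by quantiles. Changes, standard errors (SE) and adjusted p are those of the first scaling. DM+Sham 2 and 3 differed by a spread of 0.022 on the log2 scale, less than the noise of repeated spots (0.075 and 0.070), and counted as 1 sample, and so did Control+RYGB 2 and 3 (0.053 against 0.091 and 0.080). The fit thus held 3 samples of Control+Sham and 2 of every other group. Between 77.7% and 93.5% of probes lay well above background, no spot was saturated, and the number of arrays limits the precision. After RYGB the choice of scaling moved all genes: the median change over all genes was 0.57 in diabetic and 0.29 in control rats with the 75th percentile, but 0.00 and -0.01 with the median of each array.

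Each of 20 proximal tubule markers lay above background on at least 1 array of every group. That cannot identify the tissue, because all 12 heart muscle markers also did so in Control+Sham. Between 77.7% and 93.5% of all probes lay well above background on an array. The library DM+RYGB 2 stood apart and carried heart muscle transcripts far above every other array. Myh6, a myosin heavy chain of heart muscle, was at 5.89 there. In the other arrays it lay between -8.17 and -4.57, with DM+RYGB 1 the highest of them at -4.57. All 12 heart muscle markers were highest in that array, 11 of them by more than 1 log2 unit, and their mean level was 3.44 there and between -5.86 and -4.23 elsewhere. Results on DM+RYGB are therefore given with and without this array.

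**Figure D1:**
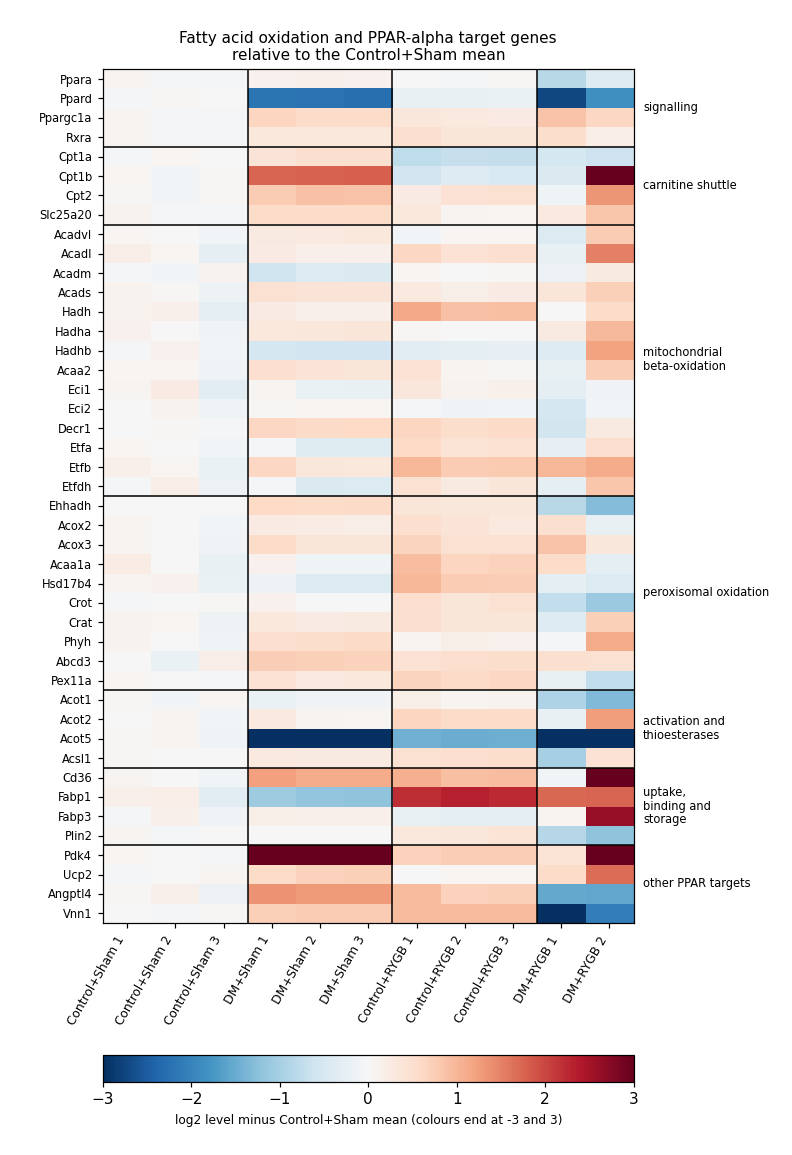
Log2 level of the 44 genes (rows, grouped by role) in the 11 arrays (columns), as the difference from the Control+Sham mean, where red is higher and blue lower and colours end at -3 and 3. Vnn1, Angptl4, Ehhadh and Plin2 are lower in both DM+RYGB arrays than in the other 9, while Cpt1b, Cd36 and Fabp3 are high in DM+RYGB 2 alone of that group.

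The diabetic cortex carried more mRNA of Angptl4, Ppargc1a and Abcd3, and less of Acot5, Ppard and Fabp1, than the cortex of control rats, both after a sham operation. Of the 44 members 3 rose and 3 fell, against 12.4% of all genes in either direction (6.1% rose and 6.33% fell), so the share of members was near the background. None of the 4 shuttle genes and none of the 14 mitochondrial genes passed the test. The median change was 0.29 for the members and 0.03 for all genes.

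Angptl4, a secreted inhibitor of lipoprotein lipase, rose most. It was at 0.96, 1.09 and 0.74 in Control+Sham 1 to 3 and at 2.28, 2.21 and 2.20 in DM+Sham 1 to 3. All diabetic arrays lay above all control arrays, a change of 1.31 (SE 0.14, limma adjusted p = 0.0018), which is 2.49-fold. Ppargc1a, the coactivator PGC-1alpha that drives mitochondrial genes, changed by 0.61 (SE 0.11, limma adjusted p = 0.015), from -1.02, -1.18 and -1.15 to -0.46, -0.55 and -0.56. Abcd3, a transporter of acyl-CoA into peroxisomes, changed by 0.72 (SE 0.13, limma adjusted p = 0.014), from 2.18, 1.999 and 2.39 to 2.92, 2.90 and 2.89. In both genes the groups did not overlap.

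Acot5, an acyl-CoA thioesterase, which splits acyl-CoA back into fatty acid and coenzyme A, showed the largest fall. Its level was 0.29, 0.35 and 0.14 in Control+Sham, and -3.52, -3.47 and -3.54 in DM+Sham, a change of -3.77 (SE 0.19, limma adjusted p = 1.5e-04) or 13.7-fold. Ppard, which encodes the related receptor PPAR-delta, lay at -2.61, -2.54 and -2.60 in control and at -4.78, -4.79 and -4.85 in diabetic rats, a change of -2.22 (SE 0.24, limma adjusted p = 0.0022). A second probe of Ppard gave -0.71, and for RYGB in diabetic rats 1.099 where the brighter probe gave -0.07, so the probes disagree and the level of Ppard is uncertain. Fabp1, the liver-type fatty acid binding protein, which proximal tubule cells also make, changed by -1.13 (SE 0.18, limma adjusted p = 0.0082), from -4.31, -4.25 and -4.80 to -5.53, -5.65 and -5.66. The groups were apart for all 3 genes.

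Ppara itself was at 0.53, 0.42 and 0.40 in control and 0.58, 0.60 and 0.59 in diabetic rats, which differed by 0.14 (SE 0.14, limma adjusted p = 0.55). The RXR subunit gene Rxra changed by 0.31 and did not pass the test either.

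Pdk4 and Cpt1b had large differences that the test did not pass. Pdk4, the kinase that shuts off pyruvate dehydrogenase and is a textbook PPAR target, was at -3.84, -3.89 and -3.95 in Control+Sham and at -0.83, -0.84 and -0.80 in DM+Sham, a difference of 3.07 (SE 0.75), with a limma adjusted p of 0.037 with the 75th percentile but up to 0.064 over the 3 scalings. Cpt1b, the muscle form of the enzyme that loads fatty acids onto carnitine, was at 0.09, -0.06 and 0.08 against 1.78, 1.81 and 1.82, a difference of 1.76 (SE 1.14, limma adjusted p = 0.34). Neither gene's arrays overlapped between the groups, and their wide SE comes with the gap between the 2 DM+RYGB arrays, which share in the estimate of spread. With either DM+RYGB array left out the differences stayed the same. More members and more of all genes then passed the test for diabetes, and the share that passed grew more among the members. That fit assumes the 1 remaining DM+RYGB array varies like the other groups.

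Within the carnitine shuttle the differences were 0.44 for Cpt1a, the liver-type form, and 1.76 for Cpt1b. They were 0.82 for Cpt2, which unloads carnitine inside the mitochondrion, and 0.55 for the carrier Slc25a20. For all 4 every diabetic array lay above every control array, but the groups were apart for 32 of the 44 members. The share of all genes that were apart was not counted. Across the mitochondrial enzymes differences ran from -0.55 for Hadhb, the thiolase subunit of the trifunctional protein, to 0.60 for Decr1, which handles unsaturated chains. Hadha, the partner subunit of Hadhb, differed by 0.33, with 0.97 on its second probe. Acadm, the medium-chain acyl-CoA dehydrogenase, was lower in diabetic rats by a change of -0.51 (SE 0.15, limma adjusted p = 0.066) and did not pass.

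In the peroxisome the other 9 members did not pass, with differences from -0.28 for Hsd17b4, a bifunctional enzyme of branched chains, to 0.59 for Ehhadh, which passed with the 75th percentile but had an adjusted p of up to 0.054 over the scalings. The fatty acid carrier gene Cd36 lay at -0.22, -0.29 and -0.39 in Control+Sham and at 0.92, 0.80 and 0.82 in DM+Sham. These arrays were apart, but the difference of 1.17 (SE 1.22, limma adjusted p = 0.56) did not pass. Vnn1 and Ucp2, an uncoupling protein gene, were higher by 0.73 and 0.62 with no overlap and did not pass, and Plin2 and Fabp3 overlapped between the groups.

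Of the wider pathway, a list of 107 further genes of which 92 were measured, 8 rose and 5 fell with diabetes, against 6.1% and 6.33% of all genes, so this count too was near the background. The omega-hydroxylase Cyp4a1 rose by 1.31 (SE 0.20) and the transcription factor gene Creb3l3 by 1.503 (SE 0.23). Nudt19, a peroxisomal coenzyme A hydrolase, fell by 0.67. Proximal tubule markers moved little as a list, with 1 of 20 higher, 3 lower and a median change of 0.14.

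The diabetes comparison depended on the libraries and on the treatment of background. Without Control+Sham 1, Control+Sham 2, DM+Sham 1, or DM+Sham 2 and 3, the calls of Abcd3, Fabp1 and Ppargc1a were lost and 3 of 6 stayed; without either Control+RYGB sample Abcd3 and Ppargc1a were lost. Arrays were scanned on 5 days. With scan day as a block, which leaves 2 residual degrees of freedom, 1 member (Acot5) passed, and with normexp background correction none did. On both days that held the 2 groups all 6 genes differed in the same direction, but arrays that do not overlap fix this in advance.

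After RYGB in diabetic rats Vnn1, Acot5, Angptl4 and Ehhadh showed the largest falls, and Fabp1 rose. Of the 44 members 11 fell, 1 rose and 32 did not pass, against 10.9% of all genes falling and 10.6% rising (21.5% in either direction). The fallen genes were Ppara, Cpt1a, Decr1, Ehhadh, Crot, Pex11a, Acot1, Acot5, Plin2, Angptl4 and Vnn1, and the one that rose was Fabp1. The median change was -0.07 for the members and 0.57 for all genes. This comparison shares the DM+Sham arrays with the one above.

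**Figure D2:**
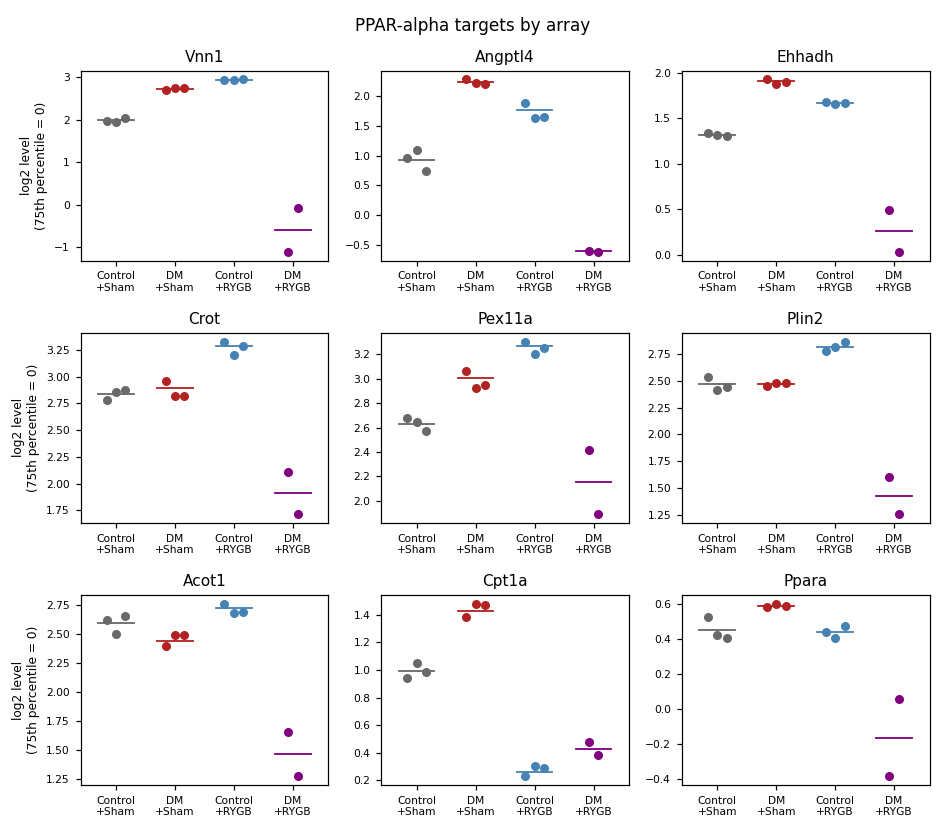
Log2 level (75th percentile of the array = 0) of 9 members in each array, with group means as lines, where averaged pairs count once. Both DM+RYGB points lie below all DM+Sham points in each of the 9 panels, and in each panel except Cpt1a also below all Control+Sham and Control+RYGB points.

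Vnn1, a pantetheinase and known PPAR-alpha target, changed most. It was at 2.70, 2.75 and 2.75 in DM+Sham and at -1.11 and -0.09 in DM+RYGB, while Control+Sham had 1.98, 1.96 and 2.04 and Control+RYGB 2.95, 2.94 and 2.95. Both DM+RYGB arrays lay far below all 9 others. The change was -3.32 (SE 0.30, limma adjusted p = 6.6e-04), or 10.0-fold. Angptl4 went from 2.28, 2.21 and 2.20 to -0.60 and -0.62, also below every control array, a change of -2.86 (SE 0.15, limma adjusted p = 1.8e-04) or 7.25-fold.

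Peroxisomal genes were lower in part. Ehhadh, the bifunctional enzyme of peroxisomal beta-oxidation, was at 1.93, 1.88 and 1.90 in DM+Sham and at 0.50 and 0.03 in DM+RYGB, below the 1.34, 1.32 and 1.30 of Control+Sham. It changed by -1.65 (SE 0.16, limma adjusted p = 8.0e-04). Crot, which puts shortened chains onto carnitine so that they can leave the peroxisome, went from 2.96, 2.82 and 2.82 to 2.11 and 1.71 (change -0.98, SE 0.15). Pex11a, which promotes the division of peroxisomes, went from 3.06, 2.93 and 2.95 to 2.41 and 1.89 (change -0.85, SE 0.18). The DM+RYGB arrays of both genes lay below all other arrays. The other 7 peroxisomal members did not pass, with changes from -0.24 for Abcd3 to 0.14 for the branched-chain oxidase Acox3 and the thiolase gene Acaa1a. The sign of Acox3 depends on the scaling: it was -0.79 by quantiles.

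Cpt1a, whose enzyme sets the pace of entry into mitochondria, fell from 1.38, 1.48 and 1.47 to 0.48 and 0.38, with no overlap and closely matched DM+RYGB arrays. The change was -1.001 (SE 0.11, limma adjusted p = 0.0010), and Control+Sham had 0.94, 1.05 and 0.99, also above both DM+RYGB arrays. Ppara fell from 0.58, 0.60 and 0.59 to -0.39 and 0.06, a change of -0.76 (SE 0.16, limma adjusted p = 0.0083). Of the 14 mitochondrial enzymes Decr1 alone fell, from 4.18, 4.15 and 4.16 to 3.01 and 3.84 (change -0.74, SE 0.25, limma adjusted p = 0.041), and its call was lost when any sample other than a DM+RYGB array was left out, with adjusted p between 0.058 and 0.13. The other 13 ran from -0.35 for Eci2, an isomerase, to 0.97 for Hadhb, and none of them passed. The median over all 14 was 0.21, against 0.57 for all genes.

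Plin2, the coat protein of lipid droplets, went from 2.46, 2.48 and 2.48 in DM+Sham to 1.60 and 1.25 in DM+RYGB, below every other array, a change of -1.04 (SE 0.14, limma adjusted p = 0.0020). Acot1, the cytosolic thioesterase, went from 2.40, 2.49 and 2.49 to 1.66 and 1.27 (change -0.98, SE 0.15). Acsl1, which activates long chains, was at 3.32, 3.29 and 3.30 and at 2.02 and 3.46, a difference of -0.57 that did not pass, and Acot2, the mitochondrial thioesterase, at 2.70, 2.49 and 2.48 and at 2.20 and 3.67, where the DM+RYGB arrays lay on both sides of DM+Sham. Acot5, already low with diabetes, went from -3.52, -3.47 and -3.54 to -6.42 and -7.05, the lowest levels of the gene on any array. Its change was -3.22 (SE 0.20, limma adjusted p = 2.8e-04). With normexp background correction the change was 0.08 and not called, where the median change over all genes was 1.22. At this dim level the size is therefore uncertain. Acot1, Acot2 and Acot5 are close relatives that lie side by side on chromosome 6, and whether a probe also catches a relative was not tested.

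**Figure D3:**
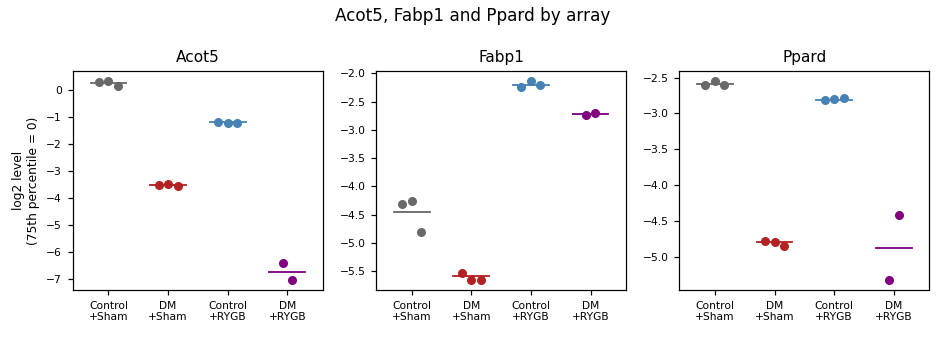
Log2 level (75th percentile of the array = 0) of Acot5, Fabp1 and Ppard in each array, with group means as lines, where averaged pairs count once. Acot5 is lowest in DM+RYGB, Fabp1 is higher in both RYGB groups than in both sham groups, and Ppard, on the brighter of its 2 probes, is lower in all 5 diabetic arrays than in all 6 control arrays.

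Fabp1 moved against the 11 members that fell. It lay at -5.53, -5.65 and -5.66 in DM+Sham and at -2.73 and -2.71 in DM+RYGB, with a wide gap between the groups. The change was 2.87 (SE 0.19, limma adjusted p = 3.3e-04), or 7.32-fold. Among 9 liver markers the mean level was between -3.76 and -3.36 in DM+Sham and between -3.26 and -3.03 in DM+RYGB, with 1 (Alb, by 3.38) higher and 3 lower, Fga and Fgb among them. The part of liver-type transcripts in the rise of Fabp1 was not tested.

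**Figure D4:**
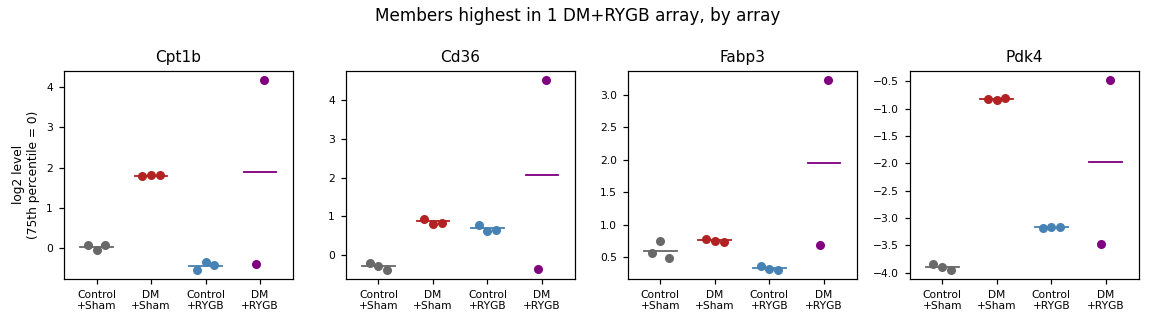
Log2 level (75th percentile of the array = 0) of Cpt1b, Cd36, Fabp3 and Pdk4 in each array, with group means as lines, where averaged pairs count once. DM+RYGB 2 is the highest array for all 4 genes, while DM+RYGB 1 lies within the range of the 6 arrays of control rats.

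The 2 DM+RYGB arrays disagreed on genes that heart muscle also uses. Cpt1b was at -0.40 in DM+RYGB 1 and 4.17 in DM+RYGB 2, where DM+Sham had 1.78 to 1.82. Cd36 was at -0.38 and 4.52, and Fabp3, the heart-type binding protein, at 0.69 and 3.22. For all 3 the second array lay above every other array and the first did not, and none passed the test. Pdk4 was at -3.47, close to the control rats, and at -0.48, above the diabetic sham rats. Of the 44 members 19 were highest in DM+RYGB 2, 4 of them by more than 1 log2 unit (Cpt1b, Cd36, Fabp3 and Hadhb), and 15 differed by more than 1 between the 2 arrays. The heart muscle markers named above were high in the same array, and their part in these values was not tested.

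Without DM+RYGB 2 the median change was -0.47 for the members and 0.61 for all genes. The change of Cpt1b was then -2.20, that of Cd36 -1.24 and that of Phyh -0.57, where the signs with both arrays were positive. Without DM+RYGB 1 the medians were 0.28 and 0.50, and the 3 genes were at 2.38, 3.66 and 0.59. All 12 genes above kept their direction with either array, but each fit holds 1 sample of DM+RYGB. The falls of Vnn1 (-3.84 and -2.81 without the second and the first array), Angptl4 (-2.85 and -2.87), Ehhadh (-1.41 and -1.88) and Cpt1a (-0.95 and -1.05) were present with either array alone.

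Of the 92 measured genes of the wider pathway 22 fell, 3 rose and the others did not pass, against 10.9% and 10.6% of all genes. Cyp4a1 fell by 2.80 (SE 0.22), Acot12 by 1.99 (SE 0.20), Decr2, a peroxisomal reductase, by 1.51 (SE 0.14) and Creb3l3 by 2.59 (SE 0.25). Txnip, a glucose-responsive gene, rose by 2.34 (SE 0.45). The median change over the 92 genes was 0.03, against 0.57 for all genes.

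Markers of nephron segments moved in this comparison too. Of 20 proximal tubule markers 14 fell and none rose, with a median change of -1.51, and the bicarbonate carrier gene Slc4a4 changed by -3.96, the glucose carrier gene Slc2a2 by -3.70 and the lactate carrier gene Slc5a12 by -4.13. The mean level of the 20 was 2.32 to 2.49 in DM+Sham and 1.23 and 0.64 in the DM+RYGB arrays. Each marker lay above background on at least 1 array of both groups. Of 6 podocyte markers 3 rose (Nphs1 by 2.03), of 4 distal convoluted tubule markers 2 (Trpv5 by 3.13), of 9 collecting duct markers 2 and of 4 thick ascending limb markers 1 (Egf by 2.22). Of all genes 10.6% rose and 10.9% fell. The median change was 1.13, 1.54, 0.63 and 0.98 for these 4 lists in that order, against 0.57 for all genes. The collecting duct list thus lay near the median of all genes. In whole cortex fewer cells of a type and less RNA per cell cannot be told apart, and the part of the lower proximal tubule markers in the falls of the members was not tested.

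With scan day as a block 5 of the 12 calls remained (Fabp1, Angptl4, Vnn1, Acot5 and Ehhadh). On the 1 day that held both groups all 12 genes differed in the same direction, which was fixed in advance, as their arrays did not overlap. With only the DM+Sham and DM+RYGB samples in the fit 7 remained, and the calls of Acot1, Crot, Decr1, Pex11a and Ppara were lost.

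After RYGB in control rats 3 members rose (Fabp1, Etfb and Angptl4) and 2 fell (Acot5 and Cpt1a), against 6.88% of all genes rising, 5.49% falling and 12.4% in either direction, so the share of members was again near the background. The median change was 0.37 for the members and 0.29 for all genes. Fabp1 was at -4.31, -4.25 and -4.80 in Control+Sham and at -2.23, -2.13 and -2.21 in Control+RYGB, with no overlap, a change of 2.26 (SE 0.18, limma adjusted p = 9.5e-04). Liver markers rose with it in this group: 6 of 9 passed, Apoa2 by 3.01, Alb by 2.95 and Tat by 5.08 among them. Tat lay well above background on only 5 arrays, so the size of its change is uncertain. Of the 9 liver markers 1 lay below background on all Control+Sham arrays. The mean level of the 9 was -3.23 to -3.13 in Control+Sham and -1.09 to -1.03 in Control+RYGB. The part of the liver markers in the rise of Fabp1 was not tested.

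Cpt1a fell in control rats as well, from 0.94, 1.05 and 0.99 to 0.23, 0.30 and 0.29, a change of -0.73 (SE 0.10, limma adjusted p = 0.0055) with no overlap. Acot5 fell from 0.29, 0.35 and 0.14 to -1.18, -1.23 and -1.22 (change -1.46, SE 0.19, limma adjusted p = 0.0051). Angptl4 rose from 0.96, 1.09 and 0.74 to 1.89, 1.63 and 1.65 (change 0.83, SE 0.14, limma adjusted p = 0.010). Etfb, a subunit of the flavoprotein that takes electrons from the dehydrogenases, rose from 3.45, 3.36 and 3.11 to 4.30, 4.08 and 4.10 (change 0.89, SE 0.15, limma adjusted p = 0.012). The groups of both rising genes were apart. The other 13 mitochondrial members ran from -0.30 for Hadhb to 1.02 for Hadh, the short-chain 3-hydroxyacyl-CoA dehydrogenase, and the 10 peroxisomal members from 0.11 to 0.87, and none of these passed.

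Vnn1 differed by 0.95 (SE 0.27) and Hsd17b4, the other bifunctional enzyme of peroxisomes, by 0.87 (SE 0.15), each apart from Control+Sham on every array. Both passed with the 75th percentile but not under all 3 scalings, with adjusted p up to 0.16 and 0.069. Among the 92 genes of the wider list 6 rose and 3 fell, against 6.88% and 5.49% of all genes, which is no more than the background. The carnitine carrier gene Slc22a5 rose by 1.88 (SE 0.28) and Bbox1, which makes carnitine, by 1.54 (SE 0.24). No proximal tubule marker of the 20 passed in either direction, but their median change was 0.76 against 0.29 for all genes, and their mean level was 2.16 to 2.40 in Control+Sham and 2.89 to 3.09 in Control+RYGB, with no overlap. Their part in these values was not tested.

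The calls of Angptl4 and Etfb were lost when any Control+Sham, DM+Sham or Control+RYGB sample was left out, leaving 3 members, and without Control+RYGB 1 that of Cpt1a was lost too, leaving 2. With either DM+RYGB array left out more members and more of all genes passed, in a fit with 1 sample of DM+RYGB. The share that passed grew more among the members. No scan day held both groups, all Control+RYGB arrays lay on a slide position that no other array had, so group and position cannot be told apart, and no member passed with scan day as a block or with normexp background correction.

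The response to RYGB was set against diabetes directly, as the change in diabetic rats minus that in control rats. For 9 members this interaction passed the test, all with a more negative change in diabetic rats, against 8.05% of all genes in that direction, 6.76% in the other and 14.8% in either. They were Vnn1 at -4.28 (SE 0.40, limma adjusted p = 0.0013), Angptl4 at -3.69 (SE 0.20, limma adjusted p = 3.0e-04), Ehhadh at -2.002, Acot5 at -1.76, Pex11a at -1.48, Crot at -1.43, Plin2 at -1.38, Acot1 at -1.11 and Hsd17b4 at -0.94. The median over members was -0.38, and over all genes 0.23.

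Vnn1 differed by 0.95 in control rats, which did not pass under all 3 scalings, and changed by -3.32 in diabetic rats. Angptl4 moved in opposite directions, by 0.83 and -2.86, each past the test. Ehhadh had differences of 0.35 and -1.65, Pex11a by 0.63 and -0.85, Crot by 0.45 and -0.98, and Plin2 by 0.35 and -1.04, of which only the changes in diabetic rats passed. Hsd17b4 differs from these, with 0.87 in control rats and -0.06 in diabetic rats, neither past the test under all 3 scalings.

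**Figure D5:**
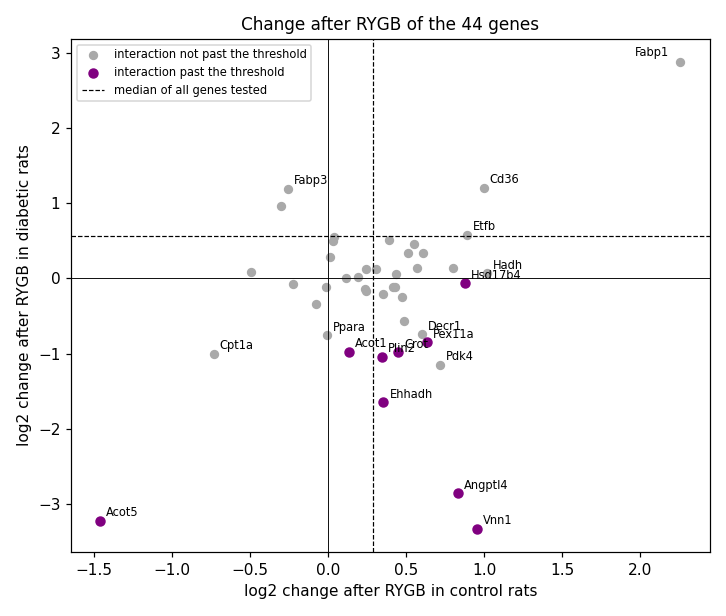
Log2 change after RYGB in control rats (x axis) and in diabetic rats (y axis) of the 44 genes, with purple points where the interaction passed the test and dashed lines at the median of all genes tested. Vnn1 and Angptl4 lie at the lower right (higher in control, lower in diabetic rats), Acot5 and Cpt1a at the lower left and Fabp1 at the upper right.

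Cpt1a and Fabp1 gave no interaction past the threshold. The interaction of Cpt1a was -0.27 (SE 0.14, limma adjusted p = 0.23) and that of Fabp1 0.62 (SE 0.26, limma adjusted p = 0.14), which does not show that the 2 responses are equal. Ppara had -0.75 (SE 0.21), with an adjusted p of 0.047 with the 75th percentile and up to 0.057 over the scalings. Of the 92 further pathway genes 22 had a negative interaction and 2 a positive one, against 8.05% and 6.76% of all genes. Cyp4a1 was at -3.71 (SE 0.30), Acot12 at -2.87 (SE 0.27), Creb3l3 at -2.77 (SE 0.34) and Decr2 at -2.01 (SE 0.19). Beside this, 13 of 20 proximal tubule markers had a negative interaction and none a positive one (Slc4a4 -5.03), and their part was not tested.

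The interaction calls of Acot1 and Hsd17b4 were those most often lost with a sample left out: Hsd17b4 without Control+Sham 1, any DM+Sham or any Control+RYGB sample, Acot1 without Control+Sham 1 or 2, DM+Sham 2 and 3, or any Control+RYGB sample, and Crot without Control+RYGB 2 and 3. Without DM+RYGB 2 the median interaction was -0.69 over members and 0.29 over all genes, and without DM+RYGB 1 it was -0.27 and 0.16. All 9 genes kept their direction each time, in fits with 1 sample of DM+RYGB. With scan day as a block 1 remained (Angptl4), and with normexp 7. Acot5 was at 1.52 with normexp and not called, where the median over all genes was 1.09.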

How the data were processed

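RNA of renal cortex was measured on 11 single-colour (Cy3) arrays of a Rat 4 x 44K design. Per the file headers, the authors used Agilent Feature Extraction 11.0.1.1 to read the intensity of each spot, with background subtraction and detrending and no scaling between arrays. The deposited table holds log2 values with a median of 7.07 in every column, with r of 0.98869 to 0.9969 against log2 of the scanner intensities. It served as an alternative. What software made it is not given in any source used here.

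From the scanner intensities, log2 of the processed signal minus each array's 75th percentile was computed here, without 1377 control spots and spots marked as outliers. Of 30367 probes 18005 had 1 symbol and 12362 none. Probes well above background on 2 or more arrays were kept, the brightest for each gene, which gave 25250 genes, 14358 of them named. Groups were fitted in 1 model in R 4.3.3 with lmFit and eBayes of limma 3.58.1 (9 samples, 5 residual degrees of freedom, Benjamini-Hochberg). The fit was tested on simulated data. The fit blocked by scan day kept DM+Sham 2 and DM+Sham 3 apart. Normexp used an offset of 50.

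The members, the 4 pathway and 12 marker lists, the tests and the alternatives were chosen with earlier results of these data known. All members may be named, and up to 3 genes of each list and comparison with the smallest adjusted p, beside markers given next to a result. The alternatives were other scalings, normexp, other probe filters, means over probes, the deposited table, separate arrays, other samples in the fit, blocks by replicate number, scan day and shared slide, array weights, a robust fit and leaving out samples. The shared slide was inferred from an identical scan time, which only Control+RYGB 2 and DM+RYGB 2 had. The latter is the array rich in heart muscle transcripts. Labels gave shared replicate numbers, and the correlations of same-numbered samples ran from -0.36 to 0.45 over 12 pairs. These pairs are not independent, as the same value recurs under different replicate numbers, such as 0.45 for DM+Sham with Control+RYGB. The correlations therefore cannot decide whether the numbers pair the samples, and the main fit did not pair them.

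Scaling decides the split of higher and lower calls. Over all genes tested, the share of higher ones among those past the threshold, with the 75th percentile, the median and quantiles, was 54.2%, 43.4% and 54.1% for diabetes, 79.3%, 40.3% and 37.6% for RYGB in diabetic rats, 79.7%, 44.1% and 39.2% for RYGB in control rats, and 60.7%, 37.9% and 42.9% for the interaction.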

Additional observations from a re-analysis of the deposited data

Results flagged for a closer look

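The change after RYGB differed between diabetic and control rats for 9 members, by the interaction term of limma over all genes and under 3 scalings. The difference (diabetic minus control rats, log2) was -4.2791 for Vnn1, -3.6911 for Angptl4, -2.002 for Ehhadh, -1.7604 for Acot5, -1.4801 for Pex11a, -1.4304 for Crot, -1.3845 for Plin2, -1.1103 for Acot1 and -0.9368 for Hsd17b4. For Vnn1, Angptl4, Ehhadh, Pex11a, Crot and Plin2 the fitted difference was positive in control rats and negative in diabetic rats, but in control rats only that of Angptl4 passed, and with arrays scaled to the median those of Ehhadh, Plin2 and Crot were 0.057, 0.047 and 0.15 there. Acot5 was lower after RYGB in both, by more in diabetic rats. The sign of its interaction turned with normexp background correction, where the median interaction over all genes was 1.09. Proximal tubule markers also had negative interactions, 13 of 20, and 14.8% of all genes passed this test in either direction.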

How the results depend on the processing

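The groups held 2 or 3 samples, the fit had 5 residual degrees of freedom, and 1 DM+RYGB array was rich in heart muscle transcripts. Counts moved with the fit more than the directions of called genes did. In part this is built in, as a call itself requires the same direction under 3 scalings. For genes not called, a turn was counted only where the alternative value passed. Over members and settings, genes that fell kept direction and call in 531 cases, lost the call in 58 and turned in 2, those that rose kept it in 118 and lost it in 50, and those not called passed in 179 cases with the same sign and in 11 with the other. The causes were not tested.

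For diabetes 6 members and 3139 genes passed. Members numbered 10 with quantiles alone, 10 with the deposited table, 12 with 11 separate arrays, 12 with only the groups compared, 10 with the shared slide as a term and 11 with array weights, but 1 with scan day as a block and 0 with normexp. Genes numbered 111 with normexp, 139 with scan day, 6747 with separate arrays and 6290 with weights. For RYGB in diabetic rats 12 members and 5438 genes passed. Members numbered 19 with the median alone, 7 with only the groups compared and 5 with scan day. Genes numbered 13343 with the 75th percentile alone, 11695 with the median, 9517 with quantiles, 9757 with the deposited table, 2072 with normexp, 1646 with only the groups compared, 1397 with scan day and 3053 with weights.

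For RYGB in control rats 5 members and 3124 genes passed. Members numbered 11 with the 75th percentile alone, 9 with weights, 3 each without the filter on dim probes, with the mean over probes and with the shared slide, and 0 with normexp and with scan day. Genes numbered 6843 with the 75th percentile, 6179 with the median, 4973 with quantiles, 5339 with the deposited table, 6011 with separate arrays, 9072 with weights, 69 with normexp and 0 with scan day. For the interaction 9 members and 3740 genes passed. Members numbered 15 with the shared slide and 1 with scan day. Genes numbered 560 with normexp, 76 with scan day, 5712 with the deposited table and 6440 with separate arrays.

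With the replicate number as a block 5, 11, 3 and 8 members passed in the same order, which moved the count by over 1.5 times for RYGB in control rats alone. Leaving out 1 sample, members ranged from 3 to 17, 11 to 23, 2 to 12 and 6 to 23, and genes from 932 to 5072, 3201 to 6019, 392 to 4868 and 1561 to 5306.

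Counting only turns where the reported or the alternative value passed the threshold, signs turned for RYGB in diabetic rats in Ppargc1a (-0.43 with the median), Rxra (-0.51 with the median, -0.64 with quantiles, -0.58 with the deposited table), Acox3 (-0.79 with quantiles, -0.72 with the deposited table), Acot5 (0.079 with normexp) and, without DM+RYGB 2, Cpt1b, Phyh and Cd36, which ranged from -2.20 to 2.38, -0.57 to 0.59 and -1.24 to 3.66 as 1 sample was left out. For the interaction they turned in Acot5 (1.52 with normexp) and, without DM+RYGB 2, in Cpt1b (-1.71 to 2.87) and Cd36 (-2.24 to 2.66). With normexp the medians over all genes were 1.22 for RYGB in diabetic rats and 1.09 for the interaction.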
